A study of Mus musculus with 8 samples.

Results

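The hyaluronan-based matrix of neural stem cells was followed through 9 genes, Has2, Cd44, Hapln1, Vcan, Ncan, Bcan, Tnc, Ptprz1 and Cspg5, in NS5 cells, a mouse neural stem cell line that the labels trace to E11.5 brain. Probe sets annotated with exactly 1 of these symbols were taken, which gave 29 of the 34958 probe sets with 1 symbol, and 9 of the 18194 genes. RNA had been measured on 8 Affymetrix arrays, 2 for each of 4 groups. All cells were plated on poly-ornithine and laminin with EGF and FGF2 for 24 h, kept free of growth factors for 4 h, and then treated for 48 h. The group named Ethanol and TGF-beta1 received TGF-beta1 with ethanol at 400 mg/dl, and the group named TGF-beta1 received TGF-beta1 alone. The group named Ethanol and FGF2 received FGF2 with ethanol at 400 mg/dl, and the group named FGF2 received FGF2 alone. Both growth factors were given at a dose that the labels write as 10 ng per ul. All groups are 1 cell line. Nothing in the labels gives separate cultures for replicates, so p-values measure the spread between these samples, which may be technical.

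The pericellular matrix of neural stem cells has little fibrillar collagen and is built on hyaluronan, a long sugar polymer that hyaluronan synthases extrude through the cell membrane. Lecticans, a family of chondroitin sulfate proteoglycans, bind hyaluronan at one end and tenascins at the other, and link proteins hold the lecticans on the polymer. In the embryonic and adult germinal zones this matrix surrounds radial glia and stem cells, where tenascin-C and receptor-type proteoglycans affect the response to growth factors.

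Values are MAS5 signals, linear intensities scaled to the same mean on every array. The signal of one probe set was not set against that of another, because probes differ in how they bind. Tests used log2(signal + 23.66) in limma, with 1 probe set a gene, 10916 genes tested and Benjamini-Hochberg adjustment over this whole set. A call needs an adjusted p under 0.05. All 9 genes passed the filter on low signals, and so did 22 of the 29 probe sets. Having 2 arrays a group limits the precision throughout.

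Fn1, which encodes fibronectin, had signals of 124 and 8226 in Ethanol and TGF-beta1, 3015 and 4109 in TGF-beta1, 6828 and 116 in Ethanol and FGF2, and 119.8 and 139 in FGF2 (replicates 1 and 2 in this order, here and below). Pmepa1, a feedback inhibitor of TGF-beta signalling, had 1081 and 7454 in Ethanol and TGF-beta1, 8093 and 7315 in TGF-beta1, 8198 and 1057 in Ethanol and FGF2, and 935 and 548 in FGF2. On both genes, replicate 1 as labelled of Ethanol and TGF-beta1 stood with the FGF2 arrays, and replicate 1 as labelled of Ethanol and FGF2 stood with the TGF-beta1 arrays. Of 7 growth factor check genes above the filter, 5 (Fn1, Itgb5, Pmepa1, Skil and Smad7) had groups without ethanol that did not overlap, while Tagln and Tgfbi did not separate them. By mean log2 signal the first of these arrays lay nearer to TGF-beta1 than to FGF2 on 1 of the 5, Smad7, and the other did on 5 of 5. By the same measure Ethanol and TGF-beta1 replicate 2 lay nearer to TGF-beta1 on 5 of 5, and Ethanol and FGF2 replicate 2 on 2 of 5, Itgb5 and Smad7. The replicate 1 arrays of both ethanol groups are called the doubted arrays below. They stayed in their labelled groups, and the ethanol values within each growth factor are given with and without both. Because they were picked by growth factor check genes, a growth factor comparison without them is not an independent check for genes that follow those. Of the defining markers, 14 of 15 measured genes of neural stem cells and radial glia passed the filter, as did 8 of 8 for astrocytes, 7 of 10 for neurons, 4 of 8 for oligodendrocytes and 6 of 10 for fibroblasts. For endothelial cells 0 of 7 passed, and for microglia 1 of 7. The ratio of 3' to 5' probe signal for Gapdh, a measure of RNA length, was 1.93 and 2.06 in Ethanol and TGF-beta1, 1.70 and 2.20 in TGF-beta1, 3.33 and 3.48 in Ethanol and FGF2, and 1.64 and 2.20 in FGF2. It was highest on both Ethanol and FGF2 arrays. The same ratio for Actb did not set both apart: it was 3.57 and 4.20 there, but 3.61 on FGF2 replicate 2. On the remaining arrays the Actb ratio was at most 3.07. The part of these ratios in the results was not tested.

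None of the 9 genes changed past the threshold with ethanol or between the growth factors. Has2, which makes hyaluronan, had the largest difference: its signal lay higher in TGF-beta1 than in FGF2 on every array without ethanol, about 4-fold, but its adjusted p was 0.981. Tnc and Hapln1 differed most between replicates of 1 group. In the probe set used for each gene, Vcan, Ncan, Bcan and Ptprz1 stayed within a 2.49-fold range over all 8 arrays. Some of their other probe sets ranged more widely, such as 1433043_at of Vcan, from 65.1 to 467.

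**Figure D1:**
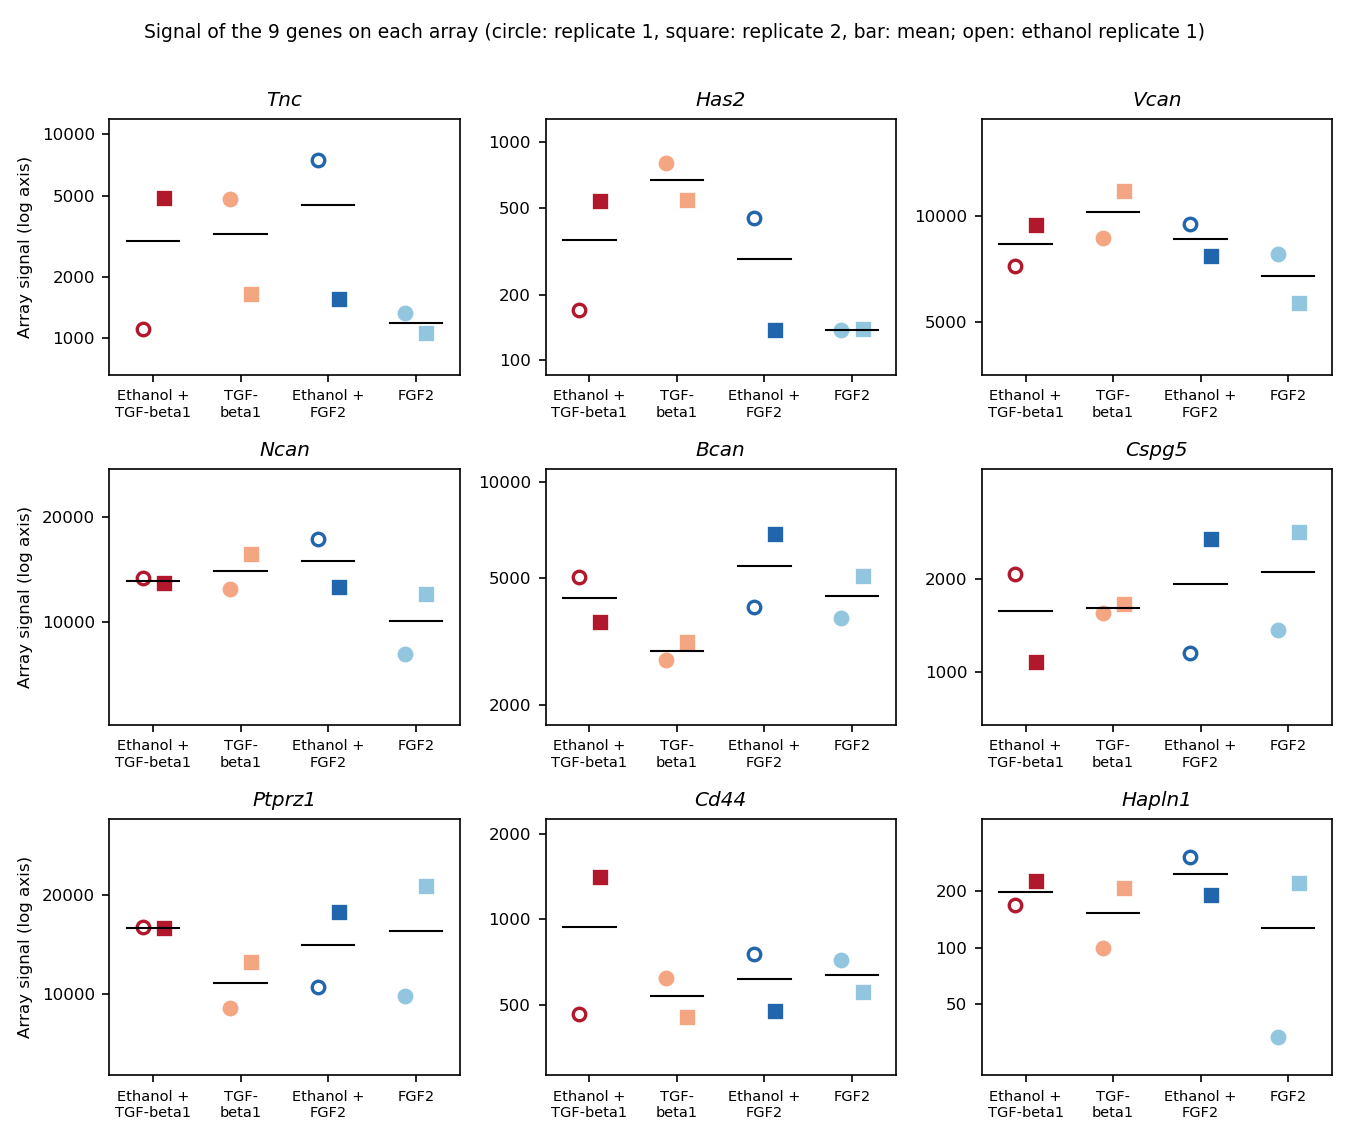
MAS5 signal of each of the 9 genes (vertical axes, log scale, 1 panel a gene) on each array, by group (horizontal axis), with circles for replicate 1, squares for replicate 2, bars for group means and open circles for the 2 doubted arrays. Tnc and Has2 differ widely between ethanol arrays of the same group, while both Has2 values in FGF2 coincide near 138.

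Has2, the main hyaluronan synthase of embryonic tissue, lies on chromosome 15 from 56665627 to 56694546 (GRCm38.p6, as all positions here). Its signal (probe set 1449169_at) was 171 and 539 in Ethanol and TGF-beta1, 803 and 546 in TGF-beta1, 449 and 137 in Ethanol and FGF2, and 138 and 139 in FGF2. The 2 TGF-beta1 arrays were the highest of the 8, and both FGF2 arrays were among the 3 lowest. Of the ethanol arrays, the one labelled Ethanol and FGF2 replicate 1 was high, and the one labelled Ethanol and TGF-beta1 replicate 1 was low. TGF-beta1 against FGF2 without ethanol gave a log2 fold change of 2.08 ± 0.59 (SE, limma), a fold change of 4.24 with a 95% interval of 1.67 to 10.8, an unadjusted p of 0.00668 and an adjusted p of 0.981. This estimate uses no ethanol array, so leaving out both doubted arrays cannot change it and alters only its SE. With ethanol the same comparison gave 0.26 ± 0.59, and 1.81 without both doubted arrays (adjusted p = 0.509).

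In the Has2 probe set used for the gene, the estimates for ethanol had opposite signs in the 2 growth factors. Within TGF-beta1 both ethanol arrays lay below both arrays without it (log2 fold change −1.05 ± 0.59, adjusted p = 0.624), and −0.29 without both doubted arrays. Within FGF2 the value was 0.77 ± 0.59, and −0.0085 without both doubted arrays. The difference between these effects was −1.82 ± 0.84 (unadjusted p = 0.0583, adjusted p = 0.832), and −0.28 without both doubted arrays. A second Has2 probe set, 1418678_at, gave 0.62 ± 0.47 for TGF-beta1 against FGF2 without ethanol and, for ethanol, −0.03 ± 0.47 within TGF-beta1 and −0.02 ± 0.47 within FGF2. The 2 probe sets shared the sign of the growth factor comparison, with a smaller value in 1418678_at, but that probe set did not show opposite signs for ethanol.

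Cd44 encodes the principal hyaluronan receptor of the cell surface (chromosome 2, 102811141 to 102901669). Its signal (1434376_at) was 465 and 1414 in Ethanol and TGF-beta1, 623 and 452 in TGF-beta1, 755 and 474 in Ethanol and FGF2, and 720.4 and 554 in FGF2. One array, Ethanol and TGF-beta1 replicate 2, lay above the other 7, which spanned 452 to 755. For ethanol within TGF-beta1 the log2 fold change was 0.60 ± 0.48 (adjusted p = 0.745), and 1.38 without both doubted arrays (adjusted p = 0.325). It was −0.18 without the high array, so in this probe set the sign rested on that array. Within FGF2 the value was −0.07 ± 0.48, and −0.40 without both doubted arrays. For TGF-beta1 against FGF2 without ethanol the value was −0.24 ± 0.48. The 2 other Cd44 probe sets past the filter, 1423760_at and 1452483_a_at, gave −0.64 and −0.77 for this comparison. For ethanol within TGF-beta1 they gave 0.78 ± 0.56 and 0.36 ± 0.66. In 1423760_at both ethanol arrays (623 and 987) lay above both TGF-beta1 arrays (610 and 328), and in 1452483_a_at the groups overlapped.

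Hapln1 encodes a link protein that fastens lecticans to hyaluronan (chromosome 13, 89540529 to 89611832). Its signal (1438020_at) was 168 and 226 in Ethanol and TGF-beta1, 98.9 and 207 in TGF-beta1, 301 and 190.2 in Ethanol and FGF2, and 33.7 and 219 in FGF2. The lowest signals were on TGF-beta1 replicate 1 and FGF2 replicate 1, and the other 6 arrays lay between 168 and 301. These 2 arrays also had the lowest median signal over all probe sets, 50.6 and 50.7, where the highest array had 86.5, and the part of this in the Hapln1 values was not tested. Ethanol averaged over both growth factors gave 0.77 ± 0.45 (adjusted p = 0.605, 95% interval −0.26 to 1.79). This value was 0.25 without FGF2 replicate 1, the lowest array, and 1.29 without FGF2 replicate 2. Ethanol gave 0.38 ± 0.64 within TGF-beta1 and 1.16 ± 0.64 within FGF2, and 0.57 and 0.86 without both doubted arrays. Only this 1 of its 4 probe sets passed the filter.

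Vcan encodes versican, the most widely expressed lectican (chromosome 13, 89655309 to 89743027). Its signal (1427256_at) was 7219.85 and 9399 in Ethanol and TGF-beta1, 8668 and 11781.5 in TGF-beta1, 9488 and 7694 in Ethanol and FGF2, and 7805 and 5658 in FGF2. Both TGF-beta1 arrays lay above both FGF2 arrays, and the ethanol groups overlapped each other and their controls. TGF-beta1 against FGF2 without ethanol gave 0.60 ± 0.27 (adjusted p = 0.981, fold 1.52, 95% interval 0.987 to 2.34). Ethanol gave −0.29 ± 0.27 within TGF-beta1 and 0.36 ± 0.27 within FGF2, and −0.10 and 0.21 without both doubted arrays. For TGF-beta1 against FGF2 without ethanol, probe sets 1421694_a_at and 1427257_at gave 1.16 ± 0.43 and 0.83 ± 0.32, but 1433043_at and 1433044_at gave −0.21 ± 0.60 and −0.05 ± 0.64. The probe sets of Vcan did not share 1 direction. This was also so for ethanol within TGF-beta1. There 1433043_at and 1433044_at gave 1.45 ± 0.60 and 1.10 ± 0.64, but 1421694_a_at and 1427257_at gave −0.59 ± 0.43 and −0.56 ± 0.32.

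Ncan encodes neurocan, a lectican confined largely to nervous tissue (chromosome 8, 70093085 to 70120863). Its signal (1434679_at) was 13329.7 and 12918 in Ethanol and TGF-beta1, 12432 and 15661 in TGF-beta1, 17281 and 12589 in Ethanol and FGF2, and 8053 and 11993 in FGF2. The 2 FGF2 arrays were the lowest of the 8. Ethanol within FGF2 gave 0.58 ± 0.28 (adjusted p = 0.637, 95% interval of the fold change 0.968 to 2.32), and 0.36 without both doubted arrays. Probe set 1423604_at gave 0.99 ± 0.28 there (adjusted p = 0.331 over 19561 probe sets), and 1444020_at gave 0.01 ± 0.29. TGF-beta1 against FGF2 without ethanol gave 0.50 ± 0.28, with 0.94 and 0.50 in the other probe sets. Within TGF-beta1 the ethanol value was −0.09 ± 0.28, and −0.11 without both doubted arrays.

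Bcan encodes brevican, the lectican of mature perineuronal and glial matrix (chromosome 3, 87987531 to 88002175). Its signal (1441899_x_at) was 5050.3 and 3637 in Ethanol and TGF-beta1, 2776 and 3156 in TGF-beta1, 4062 and 6897 in Ethanol and FGF2, and 3745 and 5087 in FGF2. Here the 2 TGF-beta1 arrays were the lowest of the 8. TGF-beta1 against FGF2 without ethanol gave −0.56 ± 0.31 (adjusted p = 0.981), and the second probe set gave −0.57 ± 0.33. Ethanol averaged over both growth factors gave 0.40 ± 0.22 (adjusted p = 0.561, 95% interval −0.09 to 0.90), and 0.48 without both doubted arrays. Within TGF-beta1 the ethanol value was 0.53 ± 0.31, and within FGF2 it was 0.28 ± 0.31. Without both doubted arrays these values were 0.30 and 0.66. For ethanol the second probe set, 1416718_at, gave 0.23 ± 0.23 in the average, 0.24 ± 0.33 within TGF-beta1 and 0.23 ± 0.33 within FGF2. Its signals in Ethanol and TGF-beta1 (2689 and 1913) overlapped those in TGF-beta1 (1587 and 2324). The latter also overlapped those in FGF2 (2271 and 3629).

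Tnc encodes tenascin-C, a hexameric glycoprotein of stem cell niches that binds lecticans, integrins and the product of Ptprz1 (chromosome 4, 63959785 to 64047015). Its signal (1416342_at) was 1110.1 and 4874 in Ethanol and TGF-beta1, 4819 and 1648 in TGF-beta1, 7444 and 1556 in Ethanol and FGF2, and 1327 and 1061 in FGF2. Replicates differed widely in 3 groups and lay close together only in FGF2. The 2 arrays at odds with their labels were at opposite ends, with the highest signal on Ethanol and FGF2 replicate 1 and a low one on Ethanol and TGF-beta1 replicate 1. TGF-beta1 against FGF2 without ethanol gave 1.23 ± 0.84 (adjusted p = 0.982, fold 2.35, 95% interval 0.628 to 8.79). Ethanol within FGF2 gave 1.504 ± 0.84 (adjusted p = 0.677), and 0.38 without both doubted arrays. Ethanol within TGF-beta1 gave −0.27 ± 0.84, and 0.78 without them. The second Tnc probe set, 1456344_at, gave 0.32 ± 0.71 for TGF-beta1 against FGF2 without ethanol. There the groups overlapped, with signals of 118 and 33.6 in TGF-beta1 and 53.6 and 43.6 in FGF2. For ethanol it gave 0.12 ± 0.71 within TGF-beta1 and 0.94 ± 0.71 within FGF2.

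The summed signal of the fibroblast and mesenchymal markers was 1451 and 3416 in Ethanol and TGF-beta1, 2222 and 2133 in TGF-beta1, 2326 and 1908 in Ethanol and FGF2, and 1514 and 1644 in FGF2. Its lowest and highest values fell on the 2 Ethanol and TGF-beta1 arrays, the first of which is a doubted array. Tnc, Has2 and Cd44 were lower on the first of these than on the other. So were Acta2 (10.5 and 751), Col1a1 (128 and 754) and Tagln (26.8 and 449), the last also a growth factor check gene. Twist1 was 972 and 1034. Lum (30.9 and 27.4) and Postn (24.0 and 6.27), both under the filter, were higher on the first. The part of these markers in the Tnc, Has2 and Cd44 values was not tested. In RNA from whole cultures, fewer cells of a type and less RNA per cell cannot be told apart.

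Has2 and Tnc had the largest differences between TGF-beta1 and FGF2 without ethanol, and promoter sequence is shown for the one of them with an entry in the RefSeq promoter table (GRCm38.p6), in which 7 of the 9 genes matched by symbol. The 250 bases before each of 2 annotated Tnc starts, which overlap, were searched on both strands for TGANTCA (AP-1), CAGACA (the Smad box, which Smad3 and Smad4 bind downstream of TGF-beta) and GGAATG (TEAD). The stretch with a match is printed 5′ to 3′ on the minus strand, chr4:64046937-64047186, with the match in capitals.
Tnc: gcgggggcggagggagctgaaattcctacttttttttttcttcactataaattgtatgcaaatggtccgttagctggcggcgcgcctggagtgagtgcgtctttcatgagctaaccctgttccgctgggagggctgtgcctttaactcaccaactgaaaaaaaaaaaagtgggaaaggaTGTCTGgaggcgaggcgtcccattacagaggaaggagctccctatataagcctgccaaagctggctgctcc
The match, TGTCTG, is the Smad box on the opposite strand and begins 71 bases before the start. The upstream stretch had none of the 3 motifs, and of the 8 stretches of the 7 genes only this 1 held any. Of all 32851 promoter stretches of this length, 17.1% held the Smad box, 6.75% the AP-1 motif and 12.6% the TEAD motif. A match describes the letters only, and binding was not measured.

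Ptprz1 encodes a transmembrane tyrosine phosphatase that carries chondroitin sulfate, whose secreted form is phosphacan and whose ligand is pleiotrophin (chromosome 6, 22875315 to 23052916). Its signal (1418690_at) was 15983 and 15847 in Ethanol and TGF-beta1, 9111 and 12515 in TGF-beta1, 10532 and 17718 in Ethanol and FGF2, and 9889.7 and 21254.5 in FGF2. Both Ethanol and TGF-beta1 arrays lay above both TGF-beta1 arrays, and the FGF2 arrays held the highest value and one of the lowest. Ethanol within TGF-beta1 gave 0.57 ± 0.39 (adjusted p = 0.692, fold 1.49, 95% interval 0.806 to 2.75), with 0.54 ± 0.29 and 0.62 ± 0.26 in the other probe sets. Within FGF2 the value was −0.09 ± 0.39. Without both doubted arrays these values were 0.57 within TGF-beta1 and 0.29 within FGF2, the second with its sign turned. The value for TGF-beta1 against FGF2 without ethanol was −0.44 ± 0.39, and 0.11 without FGF2 replicate 2.

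Cspg5 encodes neuroglycan C, a transmembrane chondroitin sulfate proteoglycan with an EGF-like domain (chromosome 9, 110243783 to 110262576). Its signal (1450713_at, its only probe set) was 2075 and 1078 in Ethanol and TGF-beta1, 1552 and 1661 in TGF-beta1, 1154 and 2687 in Ethanol and FGF2, and 1365 and 2835 in FGF2. The groups overlapped in every comparison, and replicate 2 lay above replicate 1 in both groups labelled with FGF2. Ethanol gave −0.10 ± 0.48 within TGF-beta1 and −0.16 ± 0.48 within FGF2. Without both doubted arrays these values were −0.56 and 0.44. The summed signal of the neural stem and radial glia markers was lowest on FGF2 replicate 1 (78831) and highest on FGF2 replicate 2 (134343). Bright genes weigh most in such a sum, and its markers went both ways between these arrays. Fabp7 (14771 and 36790) and Slc1a3 (11445 and 31908) were higher on FGF2 replicate 2, but Sox9 (5107 and 3572) and Pax6 (1134 and 884) were lower. Between these arrays Cspg5 differed about 2-fold, and so did Ptprz1 in the probe set used for the gene. The other Ptprz1 probe sets did not show this. On FGF2 replicates 1 and 2, 1452284_at had 8698 and 9829, and 1427019_at had 2526 and 2247. The astrocyte marker sum was lowest and highest on the same 2 arrays (43580 and 84259). There too markers went both ways, with Glul at 12141 and 30161 but Gfap at 534 and 61.9 and S100b at 3248 and 2434. The median signal over all probe sets was 50.7 and 86.5 on them. The part of these sums and medians in the Cspg5 and Ptprz1 values was not tested.

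**Figure D2:**
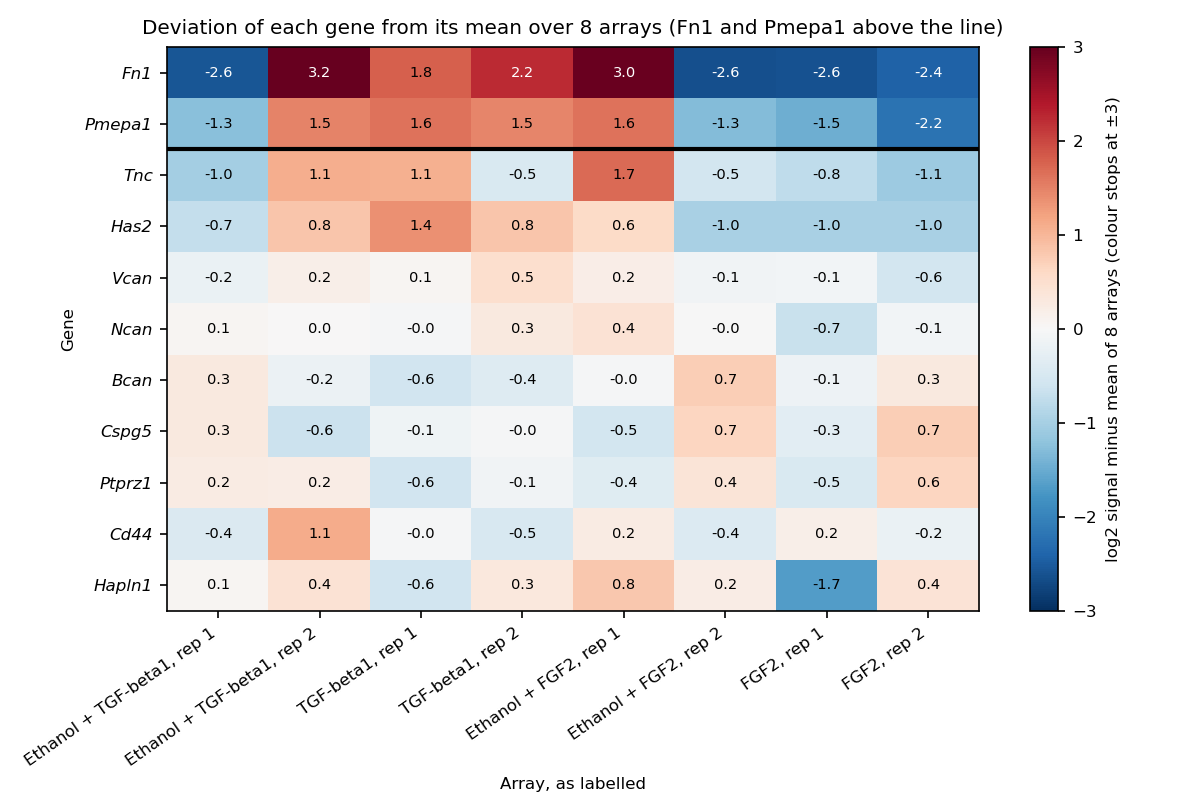
Deviation of each gene from its own mean over the 8 arrays, in log2 units (colour), with arrays in columns by group and genes in rows. The columns of the 2 ethanol arrays labelled replicate 1 carry opposite colours for Tnc and Has2, and Hapln1 is lowest on FGF2 replicate 1.

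How ethanol acted on the 9 genes was asked first as an average over both growth factors. By limma 0 of the 9 passed the threshold, where 1.99% of all 10916 genes did (20 rose and 197 fell). At an unadjusted p under 0.05 the count was 0 of 9, against 10.8% of all genes. The log2 fold changes lay from −0.14 for Has2 to 0.77 for Hapln1, with 7 of 9 above 0 and a median of 0.25, where the median of all genes was 0.03. In 0 of the 9 did the 4 arrays with ethanol lie apart from the 4 without. Over all genes 2.98% lay apart with ethanol higher and 4.45% with ethanol lower.

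Within TGF-beta1, 0 of 9 passed for ethanol, where 1.19% of all genes did, and 0 of 9 had an unadjusted p under 0.05, against 9.47% of all genes. Counts of genes that lay apart refer to the probe set used for each gene. Bcan and Ptprz1 lay apart with ethanol higher, 2 of 9 where 22.2% of all genes did. Has2 lay apart with ethanol lower, 1 of 9 where 25.7% did. Both counts were at or below the share over all genes. Within FGF2, 0 of 9 passed, where 0.0% of all genes did, and 0 of 9 had an unadjusted p under 0.05, against 8.3% of all genes. Tnc and Ncan lay apart with ethanol higher, 2 of 9 where 19.3% of all genes did, and 0 of 9 lay apart with ethanol lower, where 12.8% did.

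Whether ethanol acted differently in the 2 growth factors was tested as an interaction, the effect within TGF-beta1 minus that within FGF2. The count past the threshold was 0 of 9, where 0.0% of all genes passed, and 0 of 9 at an unadjusted p under 0.05, against 4.43% of all genes. The values lay from −1.82 for Has2 to 0.67 for Cd44, and the 95% interval of the most precise one, Vcan, was −1.53 to 0.22. The interaction of Tnc was −1.78 ± 1.19, and 0.40 without both doubted arrays. That of Cd44 was 1.77 without them.

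The growth factors were compared without ethanol and with it. Without ethanol 0 of 9 passed by limma, where 0.0% of all genes did, and at an unadjusted p under 0.05 Has2 alone did, 1 of 9, against 4.96% of all genes. In the probe set used for each gene, Tnc, Has2, Vcan and Ncan lay apart with TGF-beta1 higher, 4 of 9 where 20.4% of all genes did. Bcan lay apart with TGF-beta1 lower, 1 of 9 where 15.8% did. The first count was above the share over all genes, the second below it, and neither was tested. The median log2 fold change of the 9 was 0.50, where that of all genes was 0.02. With ethanol 0 of 9 passed, where 0.0% of all genes did, and 0 of 9 had an unadjusted p under 0.05, against 2.63% of all genes. None of the 9 lay apart there, where 12.4% of all genes lay apart with Ethanol and TGF-beta1 higher and 19.3% with it lower. Without both doubted arrays, which leaves 1 array in each ethanol group, this comparison gave 1.63 for Tnc, 1.53 for Cd44, −0.92 for Bcan and −1.30 for Cspg5, where all 8 arrays gave −0.54, 0.43, −0.30 and −0.23, and none of these was called. The widest 95% interval of a single gene, that of Tnc, reached 1.90 on either side of its estimate, so a p above the threshold does not show that the groups were alike.

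**Figure D3:**
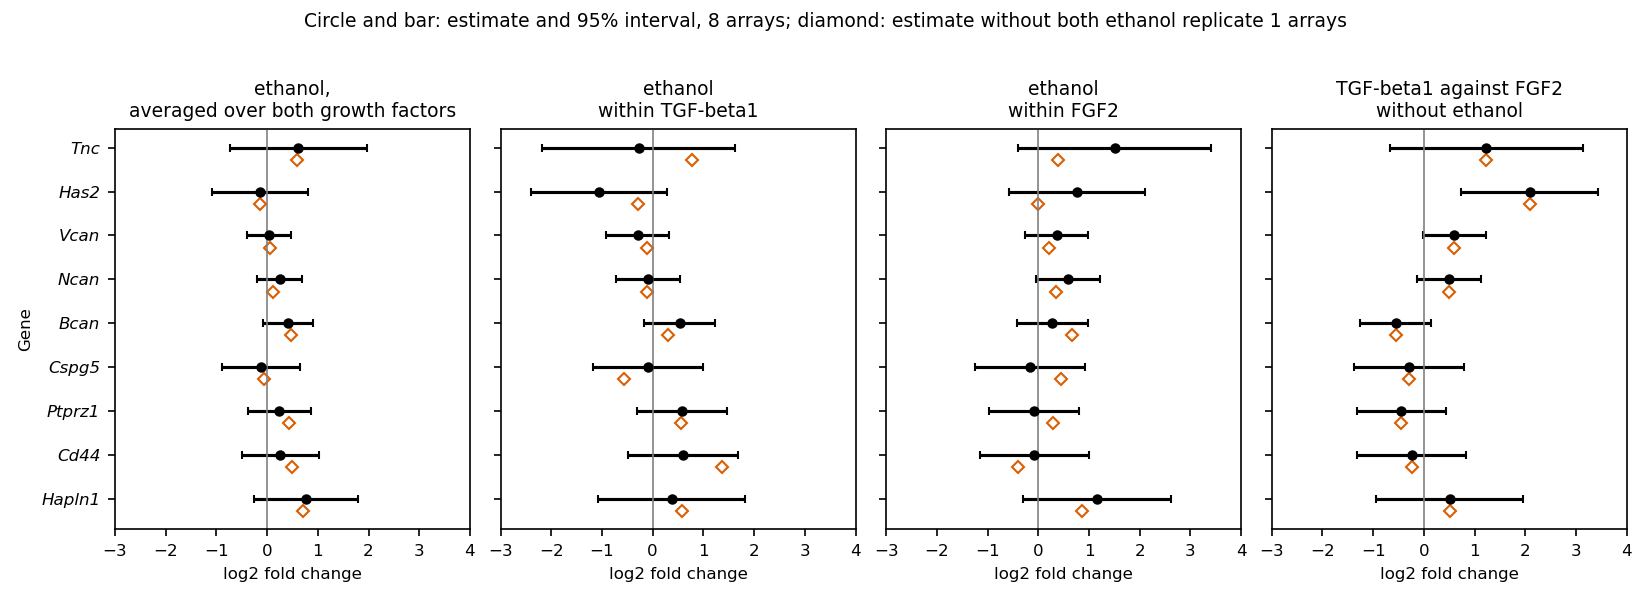
Log2 fold change (horizontal axes) of the 9 genes (rows) in 4 comparisons (panels), as circles with 95% intervals from all 8 arrays as bars, and as diamonds for the estimate without both doubted arrays. The interval of Has2 for TGF-beta1 against FGF2 without ethanol lies above 0 without adjustment, while the adjusted p of every gene in every comparison was above 0.05. In that panel no ethanol array enters the estimates, so diamonds and circles have the same values by construction.

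Over the 22 probe sets past the filter 0 were called in any comparison, and the smallest adjusted p was 0.331, for Ncan probe set 1423604_at with ethanol within FGF2. At an unadjusted p under 0.05 there were 4 for TGF-beta1 against FGF2 without ethanol, of Has2, Ncan and Vcan. With ethanol this comparison had 0. For ethanol there was 1 in the average, 1 within FGF2 and 2 within TGF-beta1, and the interaction had 1. These counts were not set against the share over all probe sets. Probe sets of Bcan and of Ptprz1 shared the direction of TGF-beta1 against FGF2 without ethanol within each gene. For Vcan, 1433043_at and 1433044_at were the exceptions.

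**Figure D4:**
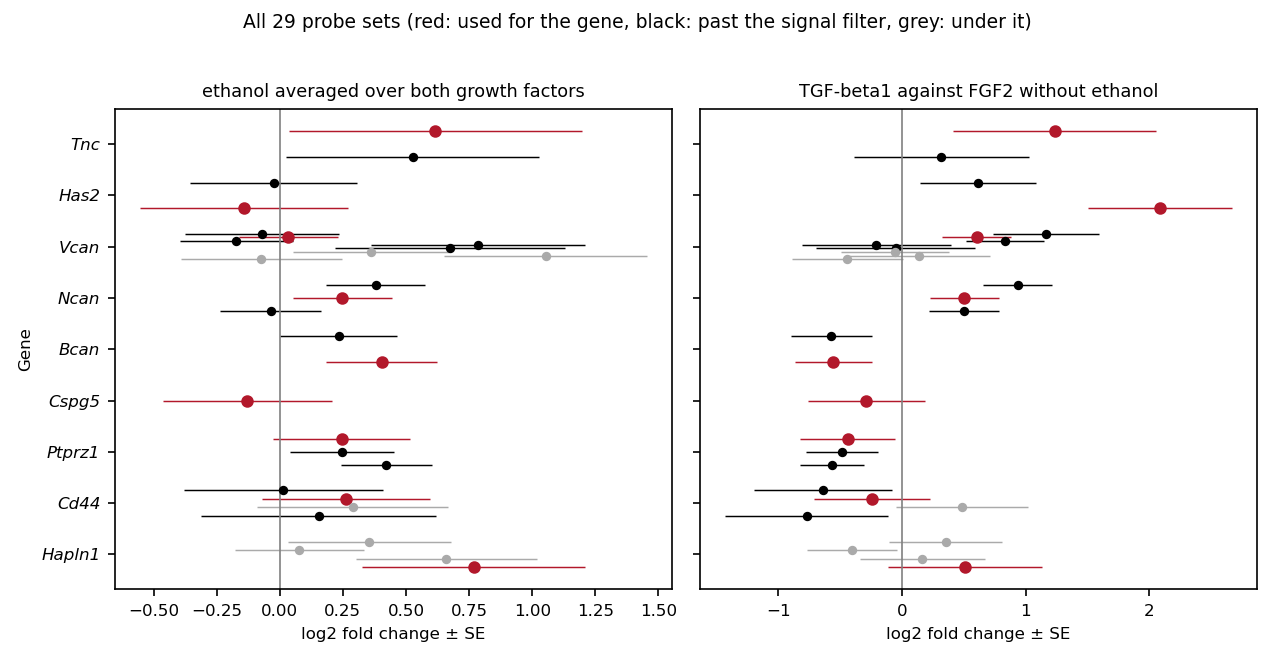
Log2 fold change (horizontal axes, SE from limma as bars) of all 29 probe sets by gene (rows) for ethanol averaged over both growth factors and for TGF-beta1 against FGF2 without ethanol (panels with different scales), in red where used for the gene, in black for others past the filter and in grey under it. Past the filter, those of Bcan, of Ptprz1 and of Cd44 lie below 0 for TGF-beta1 against FGF2 without ethanol, and those of Vcan lie on both sides.

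The genes that build, sulfate, cut and bind this matrix were taken from 6 lists of 116 genes in all, of which 113 were on the array and 67 passed the filter. Averaged over both growth factors, 2 of the 67 fell with ethanol and 0 rose, 2.99% against 1.99% of all genes. Both belong to the hyaluronan list. Hmmr encodes a hyaluronan-binding protein that also takes part in spindle assembly. Its signal was 82.1 and 213 in Ethanol and TGF-beta1, 2509.97 and 2142 in TGF-beta1, 72.2 and 70.9 in Ethanol and FGF2, and 2066 and 473 in FGF2. All 4 ethanol arrays lay below all 4 others. The log2 fold change was −3.65 ± 0.44 (adjusted p = 0.00310), and −3.37 without both doubted arrays (adjusted p = 0.0859). Of its 5 probe sets 4 were called in this average, while 1429871_at gave −0.71 ± 0.38. Within TGF-beta1 Hmmr was the 1 gene of the 67 that was called, 1.49% against 1.19% of all genes (−3.89 ± 0.62, adjusted p = 0.0236). It was −3.30 without both doubted arrays (adjusted p = 0.312). That call was also lost with the replicate number as a block (adjusted p = 0.0651) and without any 1 of 5 arrays (both of Ethanol and FGF2, both of TGF-beta1, and Ethanol and TGF-beta1 replicate 1), where adjusted p lay between 0.0535 and 0.272.

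Tnfaip6 encodes a secreted protein that crosslinks hyaluronan by moving heavy chains onto it. Its signal was 165 and 404 in Ethanol and TGF-beta1, 1634 and 1170.07 in TGF-beta1, 114 and 118 in Ethanol and FGF2, and 1156 and 269 in FGF2. The ethanol arrays lay below their controls within each growth factor, while the pooled groups overlapped at FGF2 replicate 2. The log2 fold change over both growth factors was −2.19 ± 0.43 (adjusted p = 0.0398), and −1.89 without both doubted arrays (adjusted p = 0.284). The call was also lost without any 1 of 6 arrays, where adjusted p lay between 0.0583 and 0.188, all but FGF2 replicate 2 and Ethanol and TGF-beta1 replicate 2. With the replicate number as a block the adjusted p was 0.0853.

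Some neuron markers rose with ethanol in the same comparisons. Their summed signal was 14771 and 9697 in Ethanol and TGF-beta1, 5659 and 7293 in TGF-beta1, 9806 and 12740.1 in Ethanol and FGF2, and 8437 and 11942 in FGF2. In the ethanol average 1 of 7 tested markers rose by limma. Of all genes 1.99% were called there in either direction, of which 20 rose and 197 fell. Within TGF-beta1 2 of 7 rose. Of all genes 1.19% were called there in either direction, of which 8 rose and 122 fell. The first was Celf4, an RNA-binding protein of neurons, with signals of 846 and 447 in Ethanol and TGF-beta1, 14.9 and 69.9 in TGF-beta1, 483 and 832 in Ethanol and FGF2, and 65.6 and 241 in FGF2. All 4 ethanol arrays lay above all 4 others (log2 fold change 2.76 ± 0.44, adjusted p = 0.0130), and the value was 2.72 without both doubted arrays (adjusted p = 0.163). Within TGF-beta1 Celf4 gave 3.41 ± 0.62 (adjusted p = 0.0403), and 2.97 without both (adjusted p = 0.361). Dcx, a microtubule protein of young neurons, gave 2.70 ± 0.52 (adjusted p = 0.0488), and 2.08 without both (adjusted p = 0.378). Under the settings tried, the Celf4 call held in 11 for the average and in 6 within TGF-beta1, and the Dcx call in 7. The summed signals overlapped within FGF2. The median over the 7 was 0.96 in the average, where that of all genes was 0.03, and 6 of the 7 lay above 0. Their part in the Hmmr and Tnfaip6 values was not tested.

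By limma 0 of the 67 passed within FGF2, in the interaction, and between the growth factors without and with ethanol. At an unadjusted p under 0.05 there were 10 of the 67 in the ethanol average, against 10.8% of all genes, 11 within TGF-beta1, against 9.47%, and 6 within FGF2, against 8.3%. There was 1 in the interaction, against 4.43%, 6 between the growth factors without ethanol, against 4.96%, and 0 with ethanol, against 2.63%. The median log2 fold change of the 67 was 0.13 in the ethanol average, 0.18 within FGF2, 0.11 within TGF-beta1 and 0.14 for TGF-beta1 against FGF2 without ethanol. The remaining link proteins and tenascins, 6 genes, were all under the filter.

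Among the genes that did not pass, Adamts4, a protease that cuts lecticans, had signals of 10946.3 and 14588 in Ethanol and TGF-beta1, 6840.02 and 8111 in TGF-beta1, 14478 and 14142 in Ethanol and FGF2, and 9063 and 4413 in FGF2. All 4 ethanol arrays lay above all 4 others, and the log2 fold change was 0.97 ± 0.24 (adjusted p = 0.0966). Papss1, which makes the sulfate donor of chondroitin sulfate, gave −0.58 ± 0.19 (adjusted p = 0.280). Ptprd, a receptor phosphatase, gave 0.67 ± 0.17 (adjusted p = 0.126). Between the growth factors without ethanol the largest value was that of Bgn, the small proteoglycan biglycan. Its signal was 38.1 and 1366 in Ethanol and TGF-beta1, 2113 and 977 in TGF-beta1, 1055 and 34.97 in Ethanol and FGF2, and 64.7 and 35.1 in FGF2. The low and high ethanol arrays were the same as for Fn1, and the log2 fold change was 4.34 ± 1.51 (adjusted p = 0.981). Csgalnact1, which starts chondroitin sulfate chains, gave −1.37 ± 0.57 (adjusted p = 0.981) and Adamts20, a versican-cutting protease, gave 2.10 ± 0.82 (adjusted p = 0.981).

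The tested genes whose log2 signal over the 8 arrays was most like that of each of the 9 were ranked by Pearson's r, given as a description because all genes share these arrays. Has2 was nearest to Pls1 (r = 0.993), which encodes an actin-bundling plastin, and to Amz1 (r = 0.986). Tnc was nearest to Cxxc5 (r = 0.975) and Pfkl (r = 0.960). Ncan was nearest to Tub (r = 0.987) and Kank4 (r = 0.961), and Vcan to Map1a (r = 0.943) and Cep170b (r = 0.935). Bcan was nearest to Mrm1 (r = 0.955) and Tab2 (r = 0.955). Ptprz1 was nearest to Fscn1 (r = 0.993), the actin bundler fascin, and to Idh1 (r = 0.983), and Cspg5 to Acsbg1 (r = 0.951) and Rab8b (r = 0.942). Cd44 was nearest to Kirrel (r = 0.969) and Nfe2l2 (r = 0.929), and Hapln1 to Dpp10 (r = 0.993) and the long noncoding RNA Miat (r = 0.980). The Pls1 signal was 91.0 and 339 in Ethanol and TGF-beta1, 679 and 397 in TGF-beta1, 355 and 51.9 in Ethanol and FGF2, and 76.7 and 62.8 in FGF2, the same high and low arrays as Has2. The Miat signal was 1368 and 1542 in Ethanol and TGF-beta1, 384 and 2478 in TGF-beta1, 3520.09 and 1550.1 in Ethanol and FGF2, and 102 and 1505 in FGF2, lowest on the same 2 arrays as Hapln1.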

How the data were processed

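RNA of 8 samples was purified with RNeasy and made into biotin cRNA in 1 amplification cycle, per the labels. The deposited values are linear signal intensities, 1 for each probe set on each array, from MAS5 and GCOS per the submitters' processing notes, whose versions are not given in the sources used here. The 2% trimmed mean was 500 on each array. There are no detection calls, so a low signal cannot be told from background, and the number of arrays limits precision. Gene names came from the platform annotation: of 45101 probe sets 34958 had 1 symbol, 932 several and 9211 none. Positions came from the RefSeq gene table (GRCm38.p6), which held the Entrez identifier of 34754 of them.

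Each gene was read from its brightest probe set (by mean log2 signal). The added constant, 23.66, is the 25th percentile of all signals, so fold changes of dim genes are understated. Genes whose mean reached the 40th percentile (6.40) entered limma 3.58.1 (R 4.3.3), with 4 group means over all 8 arrays, 4 residual and 4.93 prior degrees of freedom and a mean trend. Two-sided p-values were adjusted by the Benjamini-Hochberg method within each of 6 comparisons. Intervals are 95% and come from the same fit. The scripts were tested on simulated data. Alternatives were quantile normalization, other constants and filters, the replicate number as a block, and leaving out arrays. The 9 genes and all lists were chosen with earlier results of these data known. Named were all 9 genes, the 2 genes nearest to each, list genes past the threshold, and otherwise genes of the 2 largest changes per list.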

Additional observations from a re-analysis of the deposited data

How the results depend on the processing

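In 852 values of the 9 genes under alternatives over 16 settings, 0 were called, and the smallest adjusted p was 0.126 (Hapln1 in the ethanol average without FGF2 replicate 2, 1.29). The sign differed from the reported one in 61 of them, which belong to 32 of the 54 estimates (9 genes in 6 comparisons). Where the reported estimate exceeded its SE, it turned for Has2 with ethanol within FGF2 (−0.0085 without both doubted arrays; −0.0085 to 1.55 with single arrays left out), for Tnc in the interaction (0.40 without both), for Cd44 with ethanol within TGF-beta1 (−0.18 to 1.38 with single arrays left out) and for Ptprz1 between the growth factors without ethanol (−0.99 to 0.11). The cause was not tested. Of all genes in the ethanol average, 217 were called, 119 with the filter at the 60th percentile, where fewer genes were tested, 179 with the replicate block, 94 to 233 with single arrays left out (128 without Ethanol and TGF-beta1 replicate 1, 94 without TGF-beta1 replicate 1), and 0 without both doubted arrays (limma; 1139 unadjusted, smallest adjusted p 0.0590). Within FGF2 the 0 became 53 with quantile normalization, 29 with no filter, 3 with the stricter filter, and 0 to 77 with single arrays left out (77 without FGF2 replicate 2, 15 without Ethanol and TGF-beta1 replicate 2, 14 without Ethanol and TGF-beta1 replicate 1, 1 without FGF2 replicate 1). Within TGF-beta1 the 130 became 75 with the stricter filter, 0 with the replicate block, 0 without both doubted arrays and 0 to 162 with single arrays left out: 0 without Ethanol and TGF-beta1 replicate 1, TGF-beta1 replicate 1 or TGF-beta1 replicate 2, and 65 without Ethanol and TGF-beta1 replicate 2. Between the growth factors 5 genes were called without ethanol and 2 with it when both doubted arrays were left out, where a lone array is assumed to vary like the other groups. The labels do not say that replicate numbers pair samples, and deviations of same-numbered samples correlated from −0.44 to 0.47. Has2 and Hapln1 were under the filter at the 60th percentile.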
